A study of Schizosaccharomyces pombe with 6 samples.

Results

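The pheromone response pathway of fission yeast (Schizosaccharomyces pombe) was followed through 10 genes, namely gpa1, rgs1, ras1, ste6, ste4, byr2, byr1, spk1, ste11 and fus1. They were taken by gene symbol from the platform annotation. All 10 were measured, each by 1 probe set, among 2936 S. pombe probe sets on the array. RNA came from cells growing exponentially in rich medium, and was hybridised to 6 Affymetrix yeast arrays, 2 for each of 3 genotypes. These were fkh2delta (strain CG 116), which lacks fkh2, fkh2-S2A (strain CG 209), a mutant allele whose change the labels do not spell out, and wild type (strain CG 209). The same strain number is given for fkh2-S2A and wild type although their genotypes differ, so it does not show that their strains are otherwise matched. The sources used here give neither mating type nor auxotrophic markers. They also do not tell whether both arrays of a genotype stem from separate cultures. P-values therefore reflect array-to-array spread, possibly a technical one.

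In this pathway a peptide pheromone from a cell of the opposite mating type binds a receptor that is coupled to the G protein alpha subunit Gpa1. Gpa1 and the GTPase Ras1 switch on a kinase cascade in which Byr2 activates Byr1 and Byr1 activates the MAP kinase Spk1, and the signal reaches Ste11, the transcription factor of mating genes. In rich medium Ste11 is held back by nutrient signalling, so that growing cells show little mating gene transcription. Fkh2, a transcription factor of the forkhead family, acts in the transcription of mitotic genes.

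Values are log2 signals as deposited, and differences of group means carry the standard error (SE) from 1 limma fit over all S. pombe probe sets. P-values were adjusted in limma by the Benjamini-Hochberg method, with a threshold of 0.05. The array's background level, the 95th percentile of probe sets without an S. pombe gene, lay between 5.17 and 5.35. The same arrays carry Saccharomyces cerevisiae probe sets with the names of 6 members, and all 6 stayed below background on every array, between 3.34 and 4.58. They belong to the probe sets that set this level, so that most would lie below it, and they are no check of the members' signal. The deleted gene was read as a check of the labels: fkh2 was at 4.34 and 4.05 in fkh2delta, below background, 7.47 and 7.76 in fkh2-S2A and 7.53 and 7.39 in wild type. This probe set does not separate fkh2-S2A from wild type and is no check of those labels. A further gene that separated the groups was ura4, a uracil synthesis gene, which was at 5.40 and 6.17 in fkh2delta, 12.8 and 12.8 in fkh2-S2A and 12.8 and 12.6 in wild type. Effects of fkh2 loss and of the strain cannot be told apart in comparisons with fkh2delta. Whether fkh2-S2A and wild type differ in strain beyond the allele is not known from the labels. The mean 3′ minus 5′ signal of 6 control genes was 1.53 and 1.61 in fkh2delta, 1.35 and 1.24 in fkh2-S2A and 1.27 and 1.27 in wild type, and its part in the results was not tested.

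In fkh2delta the pathway genes did not move together. Against wild type ste6, fus1, ste4, ras1 and byr1 rose, ste11 fell, and gpa1, rgs1, byr2 and spk1 did not pass the test. These 6 of 10 stand against 64.0% of all probe sets called in this comparison (40.4% higher and 23.6% lower), so that the share of members called was close to the background. The background split of 1186 higher and 693 lower became 979 and 908 after median centring and 965 and 893 after quantile normalization. The fitted change was also at least 1 on the log2 scale for 3 of the 10 genes, against 12.9% of all probe sets. In wild type fus1 lay at background, and with it at its bound 2 genes reached that size, ste6 and ste4. For 8 of the 10 the arrays of the groups did not overlap, against 87.1% of all probe sets. The median difference of the members was 0.34, against 0.16 over all probe sets.

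In fkh2-S2A 4 of the 10 genes passed against wild type. The genes ste4, rgs1 and byr1 rose and gpa1 fell, and none of the 4 changed by 1 or more on the log2 scale, against 1.43% of all probe sets that did. Over all probe sets 33.3% were called (23.5% higher and 9.84% lower), near the members' share. That split of 689 higher and 289 lower became 560 and 498 after median centring and 442 and 422 after quantile normalization. The members' median difference was 0.050 (0.027 with fus1, which lay at background in both, counted as 0), against 0.041 over all probe sets. In the direct comparison of fkh2-S2A with fkh2delta, ste6, fus1, ras1, gpa1 and ste4 were lower and rgs1 and ste11 higher. That is 7 of 10, with 49.1% of all probe sets called (22.5% higher and 26.6% lower). The change reached 1 on the log2 scale in 2 of the 10, ste6 and fus1, against 8.04% of all probe sets, and the groups did not overlap in 8 of the 10, against 78.2%. The members' median was -0.34, against -0.019 over all probe sets. The first 2 comparisons share the wild-type arrays and the third shares both mutant groups, so their values are given side by side.

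**Figure D1:**
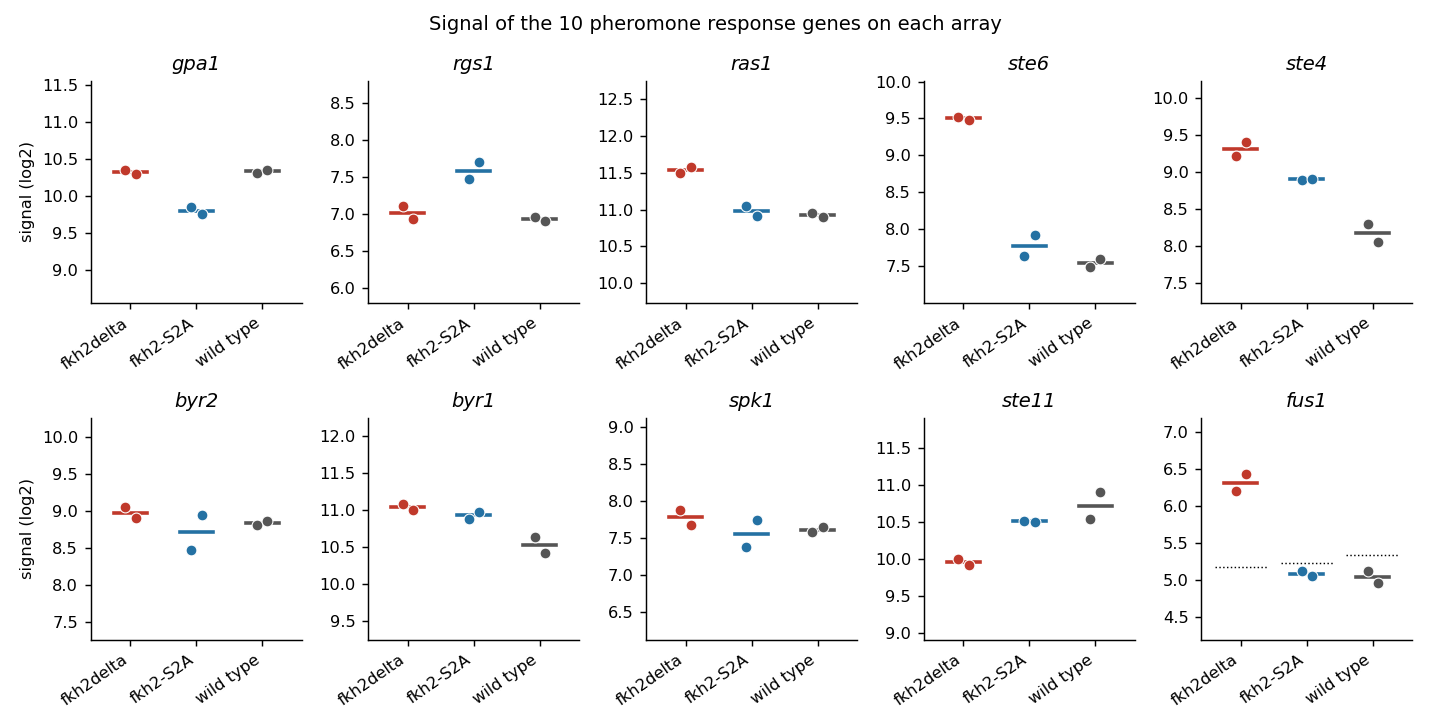
Signal (log2, vertical axis, each panel spanning 3 units) of the 10 genes on each array for fkh2delta, fkh2-S2A and wild type. Points are arrays, bars the means of the 2 arrays and dotted lines the mean background level of each group, which falls inside the plotted range for fus1 alone. The ste6, ste4, ras1 and fus1 points of fkh2delta lie above those of both other groups, and the gpa1 points of fkh2-S2A lie below.

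At the level of the G protein, the changes lay in fkh2-S2A. The gene gpa1, which encodes the alpha subunit that carries the signal from the receptor, had a signal of 10.36 and 10.3 in fkh2delta, 9.85 and 9.75 in fkh2-S2A and 10.31 and 10.35 in wild type. The fkh2delta and wild-type arrays overlapped, and both fkh2-S2A arrays lay below them. It fell by 0.53 ± 0.094 in fkh2-S2A relative to wild type (adjusted p = 0.00405) and by 0.53 ± 0.094 relative to fkh2delta (adjusted p = 0.00174). The fkh2delta difference from wild type was -0.0073, with a 95% interval from -0.22 to 0.21.

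The gene rgs1 encodes a regulator of G protein signalling that dampens the pheromone signal. It was at 7.11 and 6.94 in fkh2delta, 7.48 and 7.70 in fkh2-S2A and 6.96 and 6.90 in wild type. Both fkh2-S2A arrays lay above the other 4, the opposite side from gpa1. It rose by 0.66 ± 0.11 in fkh2-S2A over wild type (1.58-fold, adjusted p = 0.00362) and was 0.57 ± 0.11 higher than in fkh2delta (adjusted p = 0.00287). In fkh2delta it differed from wild type by 0.091, with a 95% interval from -0.16 to 0.35. That value depends on the scaling: it was -0.033 after median centring and, after quantile normalization, -0.64 with an adjusted p of 0.000986.

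At the Ras1 step the fkh2delta values stood apart. The GTPase gene ras1 was at 11.49 and 11.58 in fkh2delta, 11.04 and 10.91 in fkh2-S2A and 10.95 and 10.9 in wild type. The fkh2-S2A and wild-type arrays overlapped. It rose by 0.61 ± 0.098 in fkh2delta over wild type (1.52-fold, adjusted p = 0.000649). In fkh2-S2A it differed from wild type by 0.053, with a 95% interval from -0.17 to 0.28, and fell by 0.56 ± 0.098 relative to fkh2delta (adjusted p = 0.00168).

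The gene ste6 encodes the guanine nucleotide exchange factor that activates Ras1 in mating. It showed the largest difference of the 10 genes. Its signal was 9.52 and 9.48 in fkh2delta, 7.64 and 7.92 in fkh2-S2A and 7.50 and 7.60 in wild type. Both fkh2delta arrays lay far above the other 4. The rise in fkh2delta over wild type was 1.95 ± 0.11 (3.87-fold, adjusted p = 3.47e-06), which ranks 58 by size, in either direction, among the 2936 probe sets. In fkh2-S2A the signal was 1.72 ± 0.11 below fkh2delta (-1.72, adjusted p = 8.46e-06). Against wild type the fkh2-S2A arrays did not overlap, yet the difference of 0.23 ± 0.11 did not pass (adjusted p = 0.148, 95% interval from -0.027 to 0.49). Among all probe sets 67.1% had non-overlapping groups in that comparison.

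The gene ste4 encodes an adaptor protein that binds the kinase Byr2. It was at 9.22 and 9.42 in fkh2delta, 8.90 and 8.91 in fkh2-S2A and 8.30 and 8.05 in wild type. The 3 groups were ordered fkh2delta, fkh2-S2A, wild type without overlap, and each neighbouring pair in that order passed the test. It rose by 1.14 ± 0.12 in fkh2delta (2.20-fold, adjusted p = 6.48e-05) and by 0.73 ± 0.12 in fkh2-S2A (1.66-fold, adjusted p = 0.00318), each over wild type. The fkh2-S2A signal fell by 0.41 ± 0.12 relative to fkh2delta (adjusted p = 0.0174). This last call ended when a trend with gene length was removed (-0.31, adjusted p = 0.0528), and without fkh2delta replicate 2, fkh2-S2A replicate 1 or fkh2-S2A replicate 2. The length trend was a slope of -0.074 and -0.061 log2 per doubling of gene length in fkh2delta, 0.070 and 0.11 in fkh2-S2A and -0.034 and -0.0095 in wild type.

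**Figure D2:**
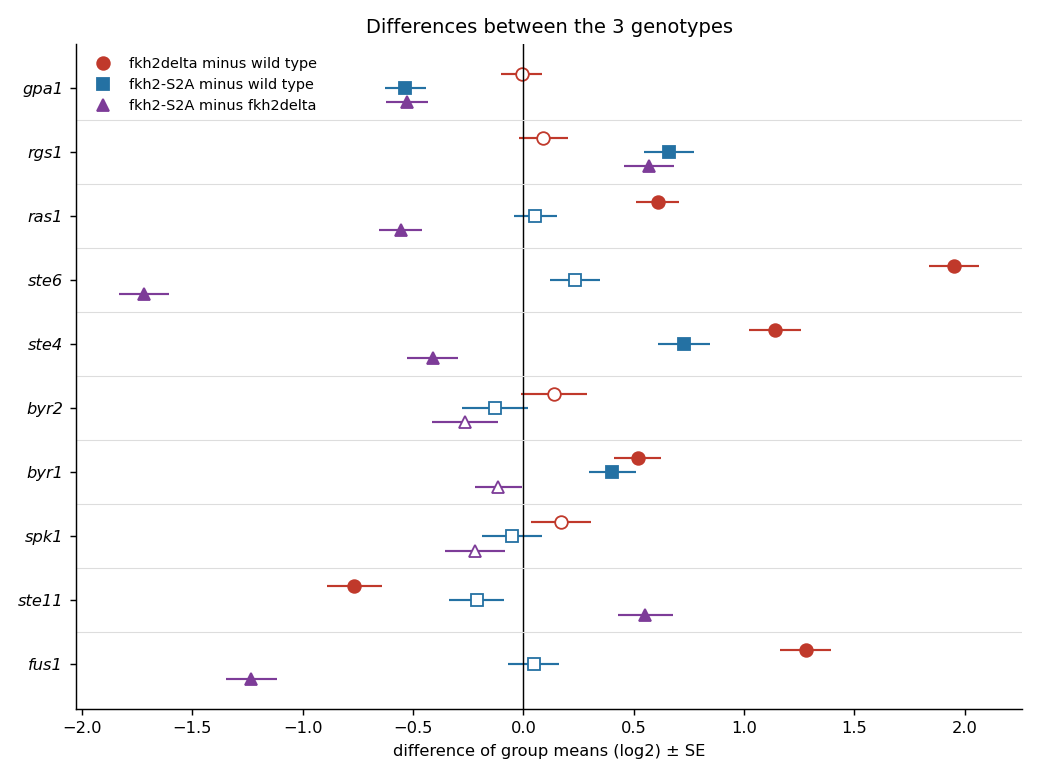
Differences between group means (log2, horizontal axis) for the 10 genes in pathway order from receptor coupling to cell fusion. Bars are the SE of the limma fit from 2 arrays per group, filled symbols passed the test and open ones did not. The fus1 symbols are fitted values against groups not above background. The ste6 difference of 1.95 in fkh2delta is the largest, and rgs1 (0.66) and gpa1 (-0.53) differ from wild type in fkh2-S2A alone by this threshold.

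Of the 3 kinases of the cascade, byr1 passed against wild type in both mutants, and byr2 and spk1 passed in no comparison with all 6 arrays. It encodes the MAP kinase kinase and was at 11.08 and 11.01 in fkh2delta, 10.88 and 10.97 in fkh2-S2A and 10.63 and 10.42 in wild type. Both mutants lay above wild type on every array. The rise over wild type was 0.52 ± 0.11 in fkh2delta (adjusted p = 0.00247) and 0.40 ± 0.11 in fkh2-S2A (adjusted p = 0.0211). The fkh2-S2A minus fkh2delta difference was -0.12, with a 95% interval from -0.36 to 0.13. The fkh2-S2A call ended without wild-type replicate 2 (0.30, adjusted p = 0.143) and without fkh2-S2A replicate 2 (0.36, adjusted p = 0.0827).

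The kinase at the head of the cascade is encoded by byr2, with a signal of 9.05 and 8.91 in fkh2delta, 8.47 and 8.95 in fkh2-S2A and 8.81 and 8.87 in wild type. The MAP kinase gene spk1 was at 7.88 and 7.68 in fkh2delta, 7.37 and 7.75 in fkh2-S2A and 7.57 and 7.64 in wild type. In both genes the fkh2-S2A arrays differed from each other more than the group means did, and replicate 1 was the lower of them. The differences from wild type were 0.14 (95% interval from -0.20 to 0.48) and -0.13 (from -0.47 to 0.21) for byr2 in fkh2delta and fkh2-S2A. For spk1 they were 0.17 (from -0.14 to 0.48) and -0.051 (from -0.36 to 0.26). Between fkh2-S2A and fkh2delta they were -0.26 for byr2 (from -0.60 to 0.076) and -0.22 for spk1 (from -0.53 to 0.088). Without fkh2-S2A replicate 2 both passed, at -0.50 for byr2 (adjusted p = 0.0132) and -0.41 for spk1 (adjusted p = 0.0388).

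The transcription factor gene ste11 fell in fkh2delta. Its signal was 9.99 and 9.92 in fkh2delta, 10.52 and 10.5 in fkh2-S2A and 10.54 and 10.9 in wild type. Both fkh2delta arrays lay below the other 4, and the wild-type arrays stood 0.36 apart. It fell by 0.77 ± 0.12 in fkh2delta relative to wild type (adjusted p = 0.000697), and fkh2-S2A was 0.55 ± 0.12 higher than fkh2delta (adjusted p = 0.00582). The fkh2-S2A difference from wild type was -0.21 (95% interval from -0.50 to 0.071, adjusted p = 0.222). Without wild-type replicate 1 it was -0.39 and passed (adjusted p = 0.0359). The direction of ste11 in fkh2delta was thus opposite to that of ste6, ste4 and fus1.

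The gene fus1 encodes a formin that builds the actin focus at the site of cell fusion. It was at 6.20 and 6.44 in fkh2delta, 5.12 and 5.05 in fkh2-S2A and 5.13 and 4.96 in wild type. The fkh2delta arrays alone lay above the background level. The fitted differences passed in limma for fkh2delta against wild type (adjusted p = 3.3e-05) and for fkh2-S2A against fkh2delta (adjusted p = 5.54e-05). As bounds, which were not tested themselves, fus1 was at least 1.96-fold higher in fkh2delta than in wild type. It was at least 2.13-fold lower in fkh2-S2A than in fkh2delta. These bounds set the mean of the group above background against the background level of the other group's arrays. Between fkh2-S2A and wild type, both not above background, no fold is given and no direction is read.

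**Figure D3:**
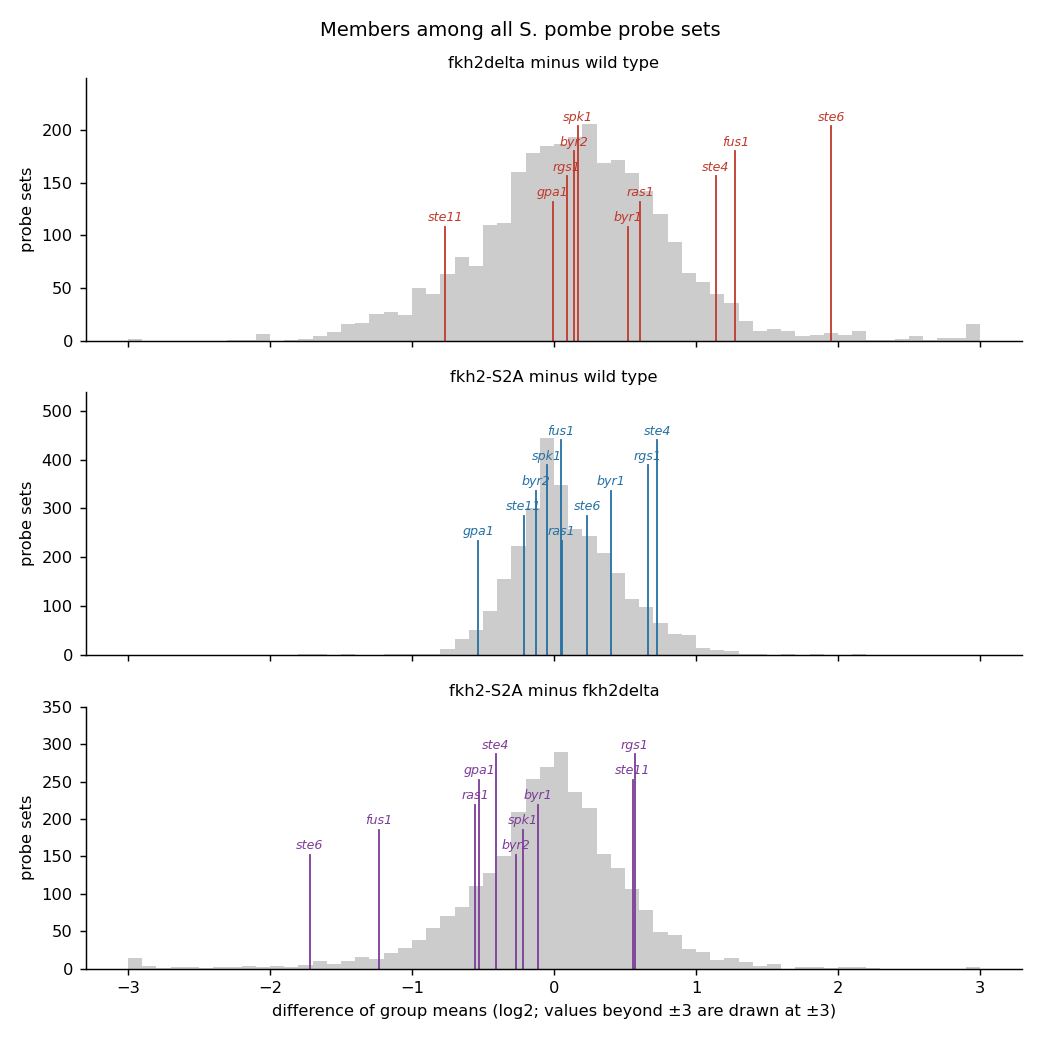
Histograms of the differences between group means (log2, horizontal axis) for all 2936 S. pombe probe sets in the 3 comparisons, with the 10 genes drawn as lines of arbitrary height. The fus1 lines are fitted values against groups not above background. In fkh2delta against wild type ste6 and ste4 lie in the upper tail, with 9.20% of probe sets differing by at least as much as ste4 in either direction, while gpa1, rgs1, byr2 and spk1 lie near the middle.

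Among all probe sets, 1.98% differed between fkh2delta and wild type by at least as much as ste6 and 9.20% by at least as much as ste4. No such share is given for fus1, for which only a bound is known. For ras1, byr1 and ste11 these shares were 34.4%, 41.8% and 23.3%, so that changes of their size were common in this strain. Between fkh2-S2A and wild type 5.93% of probe sets differed by at least as much as ste4, 8.82% by at least as much as rgs1, 15.0% by at least as much as gpa1 and 25.5% by at least as much as byr1.

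A list of 15 genes, most of which make, process or sense the pheromones, was followed, and 13 were measured. It also held the protease gene isp6, which is in the list for nitrogen-starved cells too. In fkh2delta 1 of them rose and 4 fell, where 40.4% of all probe sets were called higher and 23.6% lower. The falls were krp1 (-1.16 ± 0.15), a kexin-type protease gene, cpp1 (-0.48 ± 0.098), which encodes a farnesyltransferase subunit, sxa1 (-0.37 ± 0.10), a protease gene, and the M-factor receptor gene map3 (-0.29 ± 0.11, named after its value was seen). The gene sxa2, whose product degrades P-factor, rose (0.47 ± 0.13). In fkh2-S2A, with 23.5% of all probe sets higher and 9.84% lower, 0 rose and 4 fell by limma, with krp1 (-0.64 ± 0.15) and the M-factor precursor gene mfm3 (-0.55 ± 0.15) lowest. The falls there included isp6 (-0.40 ± 0.11). The M-factor genes encode the same peptide, and the value of mfm3 is uncertain where its probes match the others. For mfm1 (named after its value was seen) the probe set used was -0.27 in fkh2delta and -0.35 in fkh2-S2A, and neither passed. Its other probe set was 0.26 in fkh2delta, which did not pass, and -0.42 ± 0.12 in fkh2-S2A, which passed (limma, adjusted p = 0.0280). That other probe set is not in the counts here or of the M-cell genes. The count was 8 falls after quantile normalization in each mutant, and 0 in fkh2-S2A without wild-type replicate 2 or without fkh2-S2A replicate 1. The median of the list was -0.21 in fkh2delta and -0.13 in fkh2-S2A, each against wild type, where all probe sets had 0.16 and 0.041.

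The branch that links Ras1 to the cell polarity GTPase Cdc42 was measured in 11 genes. In fkh2delta all 11 passed, with 3 higher and 8 lower, where 64.0% of all probe sets passed (40.4% higher and 23.6% lower). The median was -0.44. The largest changes were in scd2 (-0.73 ± 0.11), a polarity scaffold gene, efc25 (-0.73 ± 0.13), which encodes the other exchange factor of Ras1, moe1 (-0.72 ± 0.11) and the PAK kinase gene shk2 (0.71 ± 0.10). The exchange factor genes thus went opposite ways in fkh2delta, with ste6 higher and efc25 lower. In fkh2-S2A, where 33.3% of all probe sets passed, 2 of 11 fell, efc25 (-0.56 ± 0.13) and gef1 (-0.44 ± 0.11), an exchange factor gene of Cdc42. That count was 5 after median centring or quantile normalization, 4 with the length trend removed or without wild-type replicate 1, 1 without either fkh2-S2A array and 0 without wild-type replicate 2. In fkh2-S2A against fkh2delta 4 of 11 were higher and 2 lower, where 22.5% of all probe sets were called higher and 26.6% lower. Fewer of the 11 were called higher without fkh2delta replicate 2.

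The list of nutrient and stress regulators of ste11, which also held the meiotic genes mei2 and mei3, had 33 measured genes. In fkh2delta 2 rose and 17 fell, with a median of -0.31, against 23.6% of all probe sets called lower. The falls held genes known as activators of ste11 and genes known as its inhibitors. Among activators were wis1 (-1.11 ± 0.13), the kinase that switches on the stress MAP kinase, and pcr1 (-0.92 ± 0.13), a bZIP factor gene. Among inhibitors was the kinase gene pat1 (-0.71 ± 0.17, named after its value was seen). The deepest fall was in esc1 (-1.29 ± 0.13), a helix-loop-helix factor gene, and the highest rise in mei2 (2.19 ± 0.12), which encodes an RNA-binding regulator of meiotic entry. In fkh2-S2A 2 rose and 10 fell, against 23.5% and 9.84% of all probe sets, with wis4 (0.77 ± 0.15), a stress kinase gene, and mei2 (0.71 ± 0.12) higher. The lowest were nrd1 (-0.77 ± 0.14), an RNA-binding repressor gene of mating, and ste7 (-0.62 ± 0.15). That count was 1 higher and 0 lower without wild-type replicate 2, and 2 higher and 4 lower without fkh2-S2A replicate 2.

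The list of mating and fusion proteins other than fus1 had 17 measured genes, not all of them specific to cell or nuclear fusion. In fkh2delta 11 rose and 4 fell, with a median of 0.48, where 40.4% of all probe sets were called higher and 23.6% lower. The highest rises were tht1 (2.59 ± 0.10), which encodes a nuclear envelope protein needed for nuclear fusion, num1 (1.37 ± 0.12), which encodes a cortical anchor of dynein, the kinesin gene pkl1 (1.29 ± 0.16) and the myosin gene myo51 (1.12 ± 0.11). In fkh2-S2A 7 rose and 3 fell, where 23.5% of all probe sets were higher and 9.84% lower, with pkl1 (1.09 ± 0.16), myo51 (0.97 ± 0.11) and cfr1 (0.78 ± 0.12), a cell fusion gene, highest. That count was 3 higher and 0 lower without wild-type replicate 2. Several genes of this list, such as the kinesin genes, also act in growing cells. Of the 7 forkhead and MADS-box factor genes, fkh2 included, 1 rose and 4 fell in fkh2delta and 1 rose and 1 fell in fkh2-S2A. The falls in fkh2delta include fkh2 itself, which is deleted there.

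**Figure D4:**
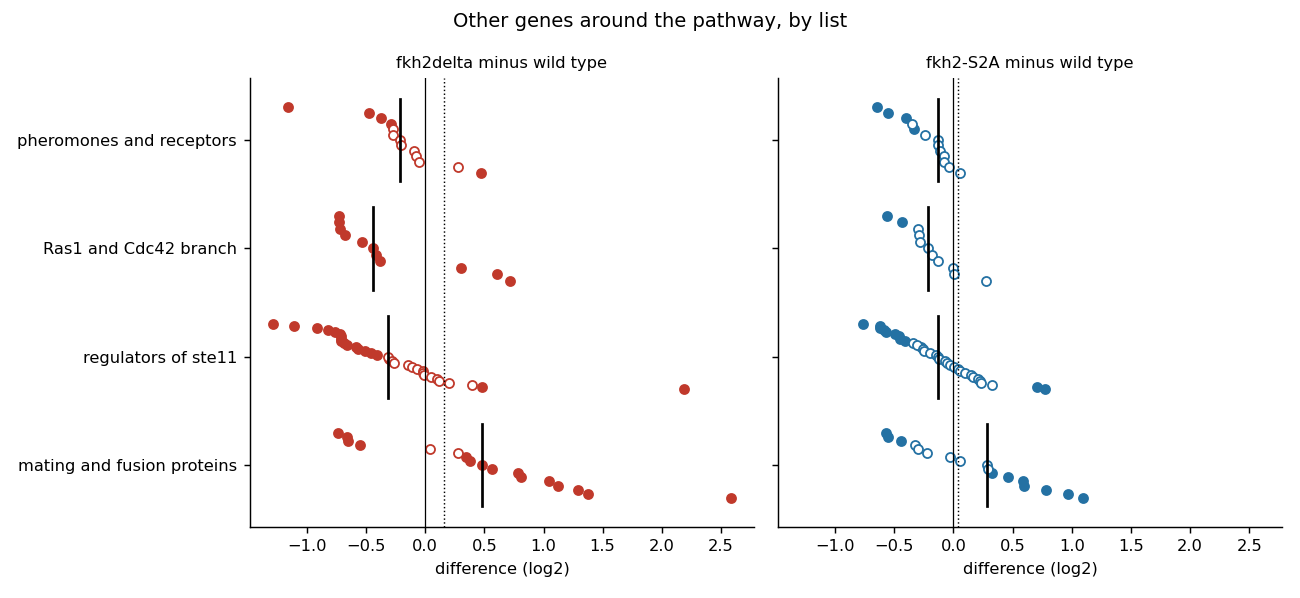
Differences from wild type (log2, horizontal axis) in fkh2delta and fkh2-S2A for 4 lists of genes around the pathway, 1 point per gene. Filled points passed the test, thick vertical bars are list medians and the dotted line is the median of all probe sets. In fkh2delta the medians run from -0.44 for the Ras1 and Cdc42 branch to 0.48 for the mating and fusion proteins.

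Markers of mating type and of cells outside growth were set beside these values. Over all probe sets 40.4% were called higher and 23.6% lower in fkh2delta, and 23.5% and 9.84% in fkh2-S2A, each against wild type. The 6 measured M-cell genes and the 5 measured P-cell genes were above background on every array, so that they do not tell the mating type. The summed linear signal of the M-cell genes was 3095 to 3730 in fkh2delta, 3098 to 3729 in fkh2-S2A and 3467 to 3902 in wild type, and 1 rose and 0 fell in fkh2delta while 0 rose and 2 fell in fkh2-S2A (limma). That of the P-cell genes was 5858 to 6244 in fkh2delta, 6355 to 6840 in fkh2-S2A and 7020 to 7494 in wild type, with 1 higher and 2 lower in fkh2delta and 0 higher and 1 lower in fkh2-S2A. Most of the M-cell sum came from mfm2 (named after its value was seen) and most of the P-cell sum from sxa1.

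Of 10 genes known from meiotic or sporulating cells, 6 rose and 0 fell in fkh2delta (limma), where their summed signal was 9012 to 9726, against 1205 to 1437 in fkh2-S2A and 1629 to 1713 in wild type. Much of that sum was meu14, and without it (a choice made after seeing the data) it was 3504 to 3780 in fkh2delta, 1097 to 1332 in fkh2-S2A and 1488 to 1574 in wild type. In fkh2-S2A 1 rose and 2 fell. Of all probe sets 40.4% were called higher and 23.6% lower in fkh2delta, and 23.5% and 9.84% in fkh2-S2A. The meiotic cohesin gene rec8 was not above background in any group, spn6 and mug28 were not above background in fkh2-S2A and wild type, and mei4 was not in fkh2-S2A. The genes mei4, mes1, spo6 and rec8 did not pass in fkh2delta. A larger share of meiotic cells and more RNA per cell cannot be told apart in bulk RNA. A list for nitrogen-starved cells held 7 genes, not all of them particular to that state. In fkh2delta 1 rose (mei2) and 3 fell. The falls included the invertase gene inv1 (-1.44 ± 0.11, likewise named after its value was seen), which is no specific marker of nitrogen starvation. In fkh2-S2A 1 of the 7 genes rose and 2 fell. Their summed signal was 5606 to 5688 in fkh2delta, 7737 to 8091 in fkh2-S2A and 6982 to 8584 in wild type. The gene mei3, an inhibitor gene of the Pat1 kinase, was not above background in any group. The part of these cell states in the members' changes was not tested.

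The probe sets whose pattern over the 6 arrays was most like that of ste6 were mde6, meu13, rga9, rmi1 and mug125, at Euclidean distances from 0.19 to 0.35 after each probe set's mean was subtracted, against a median distance of 2.07 over 2916 probe sets. For ste4 they were cdc37, mug94, epr1, ers1 and top1, at distances from 0.072 to 0.15, against a median of 1.13.

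Neighbouring genes gave a local comparison, added after the values were seen. The nearest measured coding genes on each side of the 10 members were 20 genes, of which 11 rose and 3 fell in fkh2delta and 4 rose and 2 fell in fkh2-S2A. Over all probe sets 40.4% were called higher and 23.6% lower in fkh2delta, and 23.5% and 9.84% in fkh2-S2A. The largest of these changes lay next to byr1, in tho2, an mRNA export gene, at 1.13 ± 0.11 in fkh2delta and 1.26 ± 0.11 in fkh2-S2A. Beside ste6, with 2 unmeasured coding genes between, ero12 rose by 1.04 ± 0.12 in fkh2delta and by 0.65 ± 0.12 in fkh2-S2A. The genes flanking gpa1, sec28 and cdc14, rose in fkh2delta (0.67 ± 0.11 and 0.73 ± 0.11) and did not pass in fkh2-S2A, where gpa1 fell. The genes byr1 and rgs1 lie on the same chromosome with 2 coding genes between them.

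**Figure D5:**
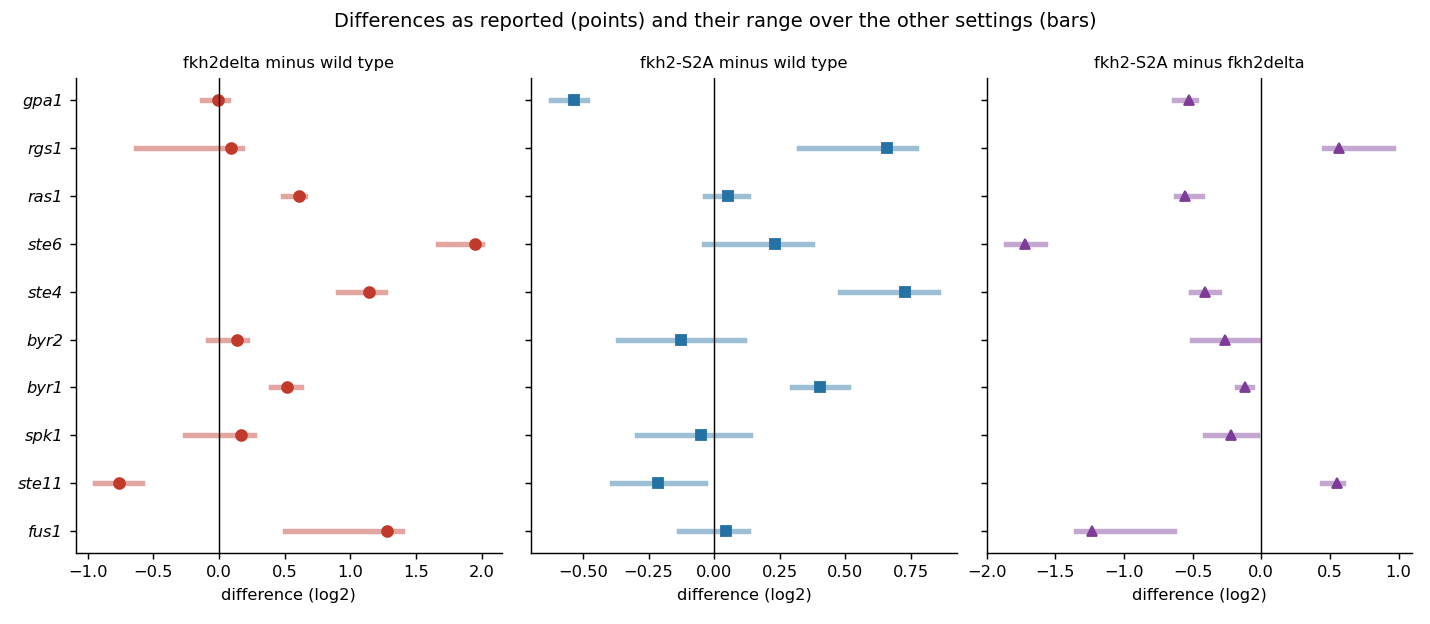
Differences between group means (log2, horizontal axis) of the 10 genes as reported (symbols) and the range of each over the other settings (bars), which were changes of normalization, filter, fit or arrays. Those of fus1 are fitted values against groups not above background. The bars of ste6 (1.67 to 2.0) and ste4 (0.91 to 1.26) in fkh2delta against wild type stay above 0, and that of rgs1 (-0.64 to 0.18) crosses it.

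Over the 10 genes and 3 comparisons 17 differences passed the test, and 15 of them passed in every alternative setting run, the threshold on the size of change aside. The exceptions were ste4 between the mutants and byr1 in fkh2-S2A, described above. None of the 17 changed direction in these settings, 19 for each gene and 18 for fus1, which a filter for signal on all 6 arrays removed.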

How the data were processed

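Total RNA from mid-log cultures was biotin-labelled and hybridised to Affymetrix arrays with probe sets for S. pombe and S. cerevisiae, per the labels' protocols. The authors deposited 1 log2 value per probe set and array. The base was inferred from the range, and no source used here names the summary method, background correction or normalization. Values were used as deposited. The table has 10928 probe sets, with 213 controls and 5538 that the platform annotation lists. Matching by Entrez identifier, or else symbol, to assembly ASM294v3 gave 2936 S. pombe probe sets for 2899 genes. Another 2601 listed ones matched no S. pombe gene and set the background level, and 5177 unlisted ones stayed out.

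Tests used limma 3.58.1 in R 4.3.3: 1 model over 6 arrays with group as the sole term (3 residual and 5.73 prior degrees of freedom), two-sided, Benjamini-Hochberg over 2936 probe sets per comparison. Where both arrays of a group did not exceed background, a bound was given. In simulated data of 2936 probe sets (fkh2delta against wild type) 67, 67 and 66 were changed by 0.5, 1 and 2 log2, with independent noise. Of the 0.5 log2 changes 88.1% were recovered, and all of 1 or 2, with 4.48% false calls. In the data 64.0% of probe sets were called, far more than were changed here, so these rates need not hold there. The members and lists (pheromones and receptors, Ras1 and Cdc42 branch, regulators of ste11, mating and fusion, forkhead and MADS-box factors, M cells, P cells, meiotic or sporulating cells, nitrogen-starved cells) were chosen with earlier results of these data known. All members are described; of each list at most the 4 largest changes per comparison are named, plus mei2, fkh2 and ura4, and genes said to be named after their values were seen. The probe set with the highest mean stood for a gene. Likeness was computed for the members with the largest change in each mutant. Alternatives were normalization, centring, length trend, dim filters, species tested, eBayes priors, 2-group fits, array weights, a replicate block and each array left out. Same-numbered arrays did not deviate together (correlations -0.18, -0.085 and -0.27), so the numbers were not taken as pairs.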

Additional observations from a re-analysis of the deposited data

How the results depend on the processing

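A further threshold of 1 log2 on the size of change left 3 of the 10 genes called in fkh2delta against wild type by fitted values. Without this threshold 6 were called, and with fus1 at its bound it left 2. In fkh2-S2A against wild type it left 0, against 4 by limma without it. The largest member difference there was 0.73 (ste4), so no p-value threshold could call a member at this size. In fkh2-S2A against fkh2delta it left 2, against 7 without it. With each array left out in turn the count stayed at 6 in fkh2delta and ran from 3 to 5 in fkh2-S2A and from 6 to 8 between the mutants. The replicate block left the counts of called members at 6, 4 and 7, as did the block with the fkh2delta numbers crossed, chosen after seeing the data, and neither changed the call of any member.

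Directions that turned belonged to differences that had not passed, and the fitted values of fus1 in fkh2-S2A have no direction, since both groups were not above background. For fkh2delta against wild type, gpa1 was 0.065 with the length trend removed, 0.011 without wild-type replicate 2 and 0.022 without fkh2delta replicate 2, the range over left-out arrays being -0.037 to 0.022. Quantile normalization gave -0.086 for byr2, -0.26 for spk1 and -0.64 for rgs1, and this last value passed; rgs1 was -0.033 with median and -0.026 with trimmed-mean centring. For fkh2-S2A against wild type, quantile normalization gave -0.038 for ste6 and -0.13 for fus1. Median and trimmed-mean centring gave -0.032 and -0.035 for ras1 and -0.039 and -0.042 for fus1. With arrays left out, byr2 ran from -0.37 to 0.11 and spk1 from -0.24 to 0.14, with both highest and ras1 lowest without fkh2-S2A replicate 1. The range was -0.016 to 0.12 for ras1 and -0.039 (without wild-type replicate 2) to 0.13 for fus1, which was -0.070 with the length trend removed. The cause was not tested. Calls were gained for ste6 (0.37) and ste11 (-0.39) in fkh2-S2A without fkh2-S2A replicate 1 and wild-type replicate 1, and for byr2 (-0.50) and spk1 (-0.41) between the mutants without fkh2-S2A replicate 2. Over all probe sets, the fkh2-S2A count was 287 without wild-type replicate 2, against 978, and testing both species gave 3352 in fkh2delta, against 1879, and 2315 between the mutants, against 1441. In pheromone and receptor genes of fkh2delta the count of 5 was 8 after centring, quantile normalization or the crossed block, 3 without wild-type replicate 2 and 2 without fkh2delta replicate 2. Between the mutants that list's count of 4 was 7 after quantile normalization or with the length trend removed, and 1 without fkh2delta replicate 2. Having 2 arrays per group limits precision, and fus1 is limited by signal near background.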
